A study of Mus musculus with 8 samples.

Results

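Nuclear receptors are transcription factors that bind DNA and, in most cases, a small lipid-soluble ligand such as a steroid, a bile acid, an oxysterol, a fatty acid or a retinoid. Many of those that act on lipid and bile acid metabolism bind DNA as heterodimers with a retinoid X receptor (RXR), and coactivators or corepressors are recruited according to the ligand. In hepatocytes they switch bile acid synthesis, lipid export, fatty acid oxidation and drug metabolism. The 33 genes described here are nuclear receptor genes other than those for the thyroid hormone and REV-ERB receptors, taken by symbol from the 22013 genes of the table, where each matched 1 row.

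The tissue was mouse liver, with 4 resmetirom libraries and 4 control libraries of poly(A)-selected RNA, grouped by the titles of the samples. Resmetirom activates thyroid hormone receptor beta, itself a nuclear receptor that pairs with RXR. The series describes mice on a diet of fructose, palmitate and cholesterol for 12 weeks, a model of fatty liver with inflammation, given resmetirom at 5 mg/kg/day by intraperitoneal injection for 8 weeks after the first 4 weeks of diet. The vehicle was carboxymethyl cellulose-sodium with Tween-80. Neither diet nor vehicle stands in the labels of the controls, and strain, sex and age are not given in the sources used here, so diet, vehicle and drug cannot be told apart. Nothing states that each library came from its own animal, so a p-value here reflects library-to-library spread, which may be technical.

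Libraries held 16787561 to 19887539 counts. All 9 hepatocyte markers passed the filter on low counts, with Cps1 (0.76) and Tat (1.63) called higher and a summed level of 98598 to 109336 CPM in the resmetirom libraries and 82332 to 92163 CPM in the control libraries. CPM is a library-size-normalised count, here scaled by trimmed-mean (TMM) factors. Major urinary protein transcripts took 7.54%, 20.1%, 25.1% and 17.8% of the counts in resmetirom replicates 1 to 4. They took 4.32% to 7.05% in the control libraries, so each change below is one after TMM scaling. Resmetirom replicate 1 was thus close to the control range and unlike the other resmetirom libraries. Its TMM factor was 1.06, against 0.804 to 0.879 in resmetirom replicates 2 to 4 and 1.08 to 1.16 in the control libraries. Scaling by library size alone moved the median change over all genes to -0.31 (log2).

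A set of 3 libraries stood apart from the other 5 in some genes of a circadian clock list chosen after the values were seen. Bmal1, which encodes the activator at the core of the clock, was at 7.10, 3.96, 14.4 and 14.9 CPM in resmetirom replicates 1 to 4 and at 16.0, 1.79, 2.64 and 3.66 CPM in control replicates 1 to 4. Dbp, a direct clock output gene, was at 26.0, 36.8, 0.866 and 1.97 CPM in resmetirom replicates 1 to 4 and at 6.71, 53.3, 36.9 and 36.5 CPM in control replicates 1 to 4. Bmal1 was highest and Dbp lowest in resmetirom replicates 3 and 4 and control replicate 1, which lie on both sides of the comparison. Npas2, Clock and Nfil3 were also highest, and Tef, Per3 and Nr1d2 lowest, in these 3 libraries. Cry1, Hlf, Per1, Per2, Nr1d1 and Ciart did not set these libraries apart. Per2 was at 13.3 CPM in control replicate 1 and at 4.11 CPM in resmetirom replicate 1. The labels give no time of collection. Many results that rest on these 3 libraries are given with and without them, but not those of Nr2c2, Nr3c2 and Nr2f1.

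For the transcripts that the account turns on, the 250 bases before each RefSeq start (GRCm38.p6, the assembly that mm10 names) are printed 5′ to 3′ on the strand of the gene. They belong to Rxra, the 1 receptor gene that passed the test, and to Hnf4a and Nr0b2, the receptor genes above 10 CPM with the widest spread among the resmetirom libraries relative to their mean. Capitals mark exact matches to AGGTCA, the core hexamer that many nuclear receptors bind, or to CACGTG, the E-box bound by clock activators, on either strand, so AGGTCA on the opposite strand reads TGACCT and CACGTG reads the same on both.
Rxra, chr2:27676951-27677200, + strand: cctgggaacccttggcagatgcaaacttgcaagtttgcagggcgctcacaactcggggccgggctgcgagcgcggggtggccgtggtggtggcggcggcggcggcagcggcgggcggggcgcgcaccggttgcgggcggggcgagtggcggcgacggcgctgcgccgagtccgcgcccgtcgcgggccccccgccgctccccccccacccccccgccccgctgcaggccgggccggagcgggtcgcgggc
Rxra, chr2:27709042-27709291, + strand: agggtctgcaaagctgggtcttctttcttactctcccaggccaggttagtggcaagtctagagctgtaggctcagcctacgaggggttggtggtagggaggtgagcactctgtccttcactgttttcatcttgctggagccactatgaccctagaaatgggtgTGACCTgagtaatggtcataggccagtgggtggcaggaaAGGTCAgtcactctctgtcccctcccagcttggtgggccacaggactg
Hnf4a, chr2:163506607-163506856, + strand: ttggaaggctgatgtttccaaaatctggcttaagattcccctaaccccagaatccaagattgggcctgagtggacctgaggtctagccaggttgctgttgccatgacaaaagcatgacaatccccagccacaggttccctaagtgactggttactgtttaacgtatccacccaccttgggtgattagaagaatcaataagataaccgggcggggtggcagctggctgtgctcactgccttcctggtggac
Hnf4a, chr2:163546905-163547154, + strand: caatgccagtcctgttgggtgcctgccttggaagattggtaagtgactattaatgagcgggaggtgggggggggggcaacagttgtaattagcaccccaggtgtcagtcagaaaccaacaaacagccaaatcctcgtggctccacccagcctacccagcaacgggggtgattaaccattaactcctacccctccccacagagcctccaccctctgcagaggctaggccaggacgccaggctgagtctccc
Nr0b2, chr4:133553126-133553375, + strand: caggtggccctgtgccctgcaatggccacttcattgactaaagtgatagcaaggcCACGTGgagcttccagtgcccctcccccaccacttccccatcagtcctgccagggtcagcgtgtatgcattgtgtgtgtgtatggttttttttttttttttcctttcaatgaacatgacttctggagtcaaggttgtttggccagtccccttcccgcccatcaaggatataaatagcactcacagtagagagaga
AGGTCA was found in 8 of 46 member windows (17.4%) and in 14.0% of all 32851 windows of the same length, and CACGTG in 3 (6.52%) and 6.02%. The second Rxra window held AGGTCA 48 bases and, on the opposite strand, 87 bases before the start, and the Nr0b2 window held CACGTG 195 bases before it. No member window held TTATGTAA, the D-box bound by Dbp protein (0.819% of all windows), CAAAGTCCA, an HNF4 motif (0.384%), or TCAAGGTCA, a motif of the LRH-1 receptor (0.387%). RefSeq windows were found for 31 of the 33 genes. A match is a description of letters, not a binding site.

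Levels between genes were compared on the deposited TPM, which is corrected for gene length. Over all 8 libraries 10 of the 33 genes averaged at least 20 TPM, 17 lay from 1 to under 20 TPM, and 6 were under 1 TPM. Hnf4a, a regulator of hepatocyte identity, had the highest level, with 161 ± 60.8 TPM in resmetirom libraries and 179 ± 50.4 TPM in control libraries (SD, n = 4 each, as for every mean ± SD here). Rxra followed with 100.3 ± 12.5 TPM in resmetirom libraries and 110.1 ± 8.80 TPM in control libraries. Next came the bile acid receptor gene Nr1h4 (FXR), the oxysterol receptor gene Nr1h3 (LXR alpha) and the xenobiotic receptor gene Nr1i3 (CAR). Nr1h4 had 75.7 ± 16.6 TPM in resmetirom libraries and 102 ± 21.8 TPM in control libraries. The other RXR genes were lower than Rxra in every library, with Rxrb at 8.26 to 11.5 TPM in resmetirom libraries and 13.8 to 16.95 TPM in control libraries, and Rxrg at 2.82 ± 1.33 TPM in resmetirom libraries and 4.04 ± 0.988 TPM in control libraries.

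**Figure D1:**
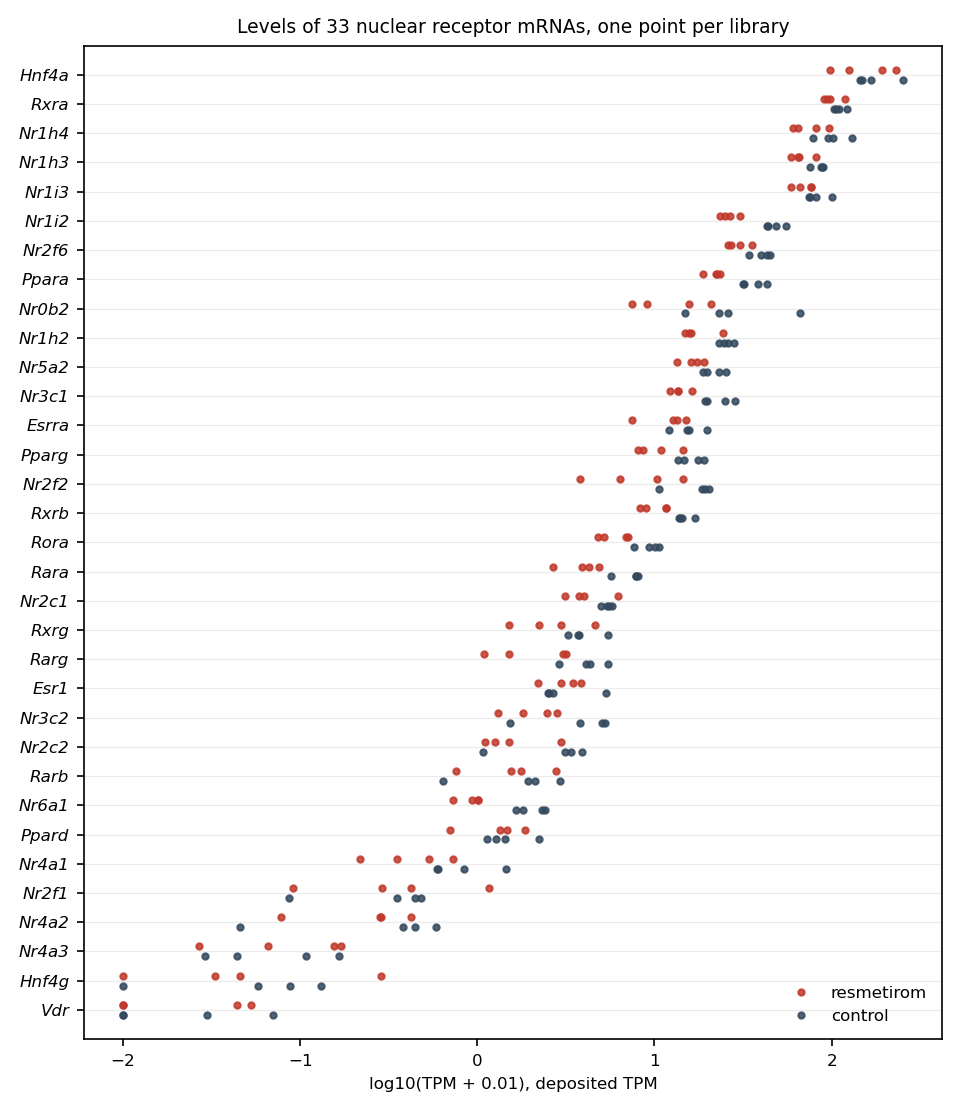
Deposited TPM of the 33 nuclear receptor genes on a log10(TPM + 0.01) axis, with 1 point per library, resmetirom (red) above control (blue-grey) in each row and genes ordered by their mean. Hnf4a and Rxra stand at the top, with no library under 91.1 TPM, and Vdr, Hnf4g and Nr4a3 at the bottom.

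The low genes have known homes outside the hepatocyte or outside the resting liver. Vdr, the vitamin D receptor gene, had 2, 0, 2 and 0 counts in resmetirom replicates 1 to 4 and 0, 3, 1 and 0 counts in control replicates 1 to 4. Hnf4g, a relative of Hnf4a best known from gut and kidney, had 1, 1, 0 and 13 counts in resmetirom replicates 1 to 4 and 6, 0, 2 and 2 counts in control replicates 1 to 4. Nr4a3, an immediate early gene, had 3, 10, 10 and 1 counts in resmetirom replicates 1 to 4 and 6, 9, 2 and 1 counts in control replicates 1 to 4. These 3 genes did not pass the filter on low counts and were not tested, and their groups overlapped. The other 30 were tested.

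The comparison of resmetirom with control asks which receptor mRNAs differ after treatment. Of the 30 tested receptor genes 1 rose and 0 fell in edgeR's quasi-likelihood test at a Benjamini-Hochberg adjusted p under 0.05 over 12207 genes, where 4.59% of all tested genes were called, 2.6% higher and 1.99% lower. At an unadjusted p under 0.05 there were 3 of 30 (Rxra, Nr1i2 and Nr6a1), against 17.8% of all tested genes. DESeq2 also called 1 higher and 0 lower, where it called 7.73% of all genes it tested. All 4 resmetirom libraries lay above or below all 4 control libraries in 1 of the 30 (1 above, 0 below), against 11.8% of all tested genes (6.32% above, 5.5% below). The median log2 fold change was 0.01 over the 30 genes, with 15 above and 15 below 0, and -0.0043 over all tested genes. The 95% interval of the change lay within 1.5-fold in either direction for 14 genes, and within 2-fold for 18. For the other 12, among them Hnf4a, Nr0b2, Nr2f2 and Nr3c2, the interval reached beyond 2-fold in at least 1 direction.

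**Figure D2:**
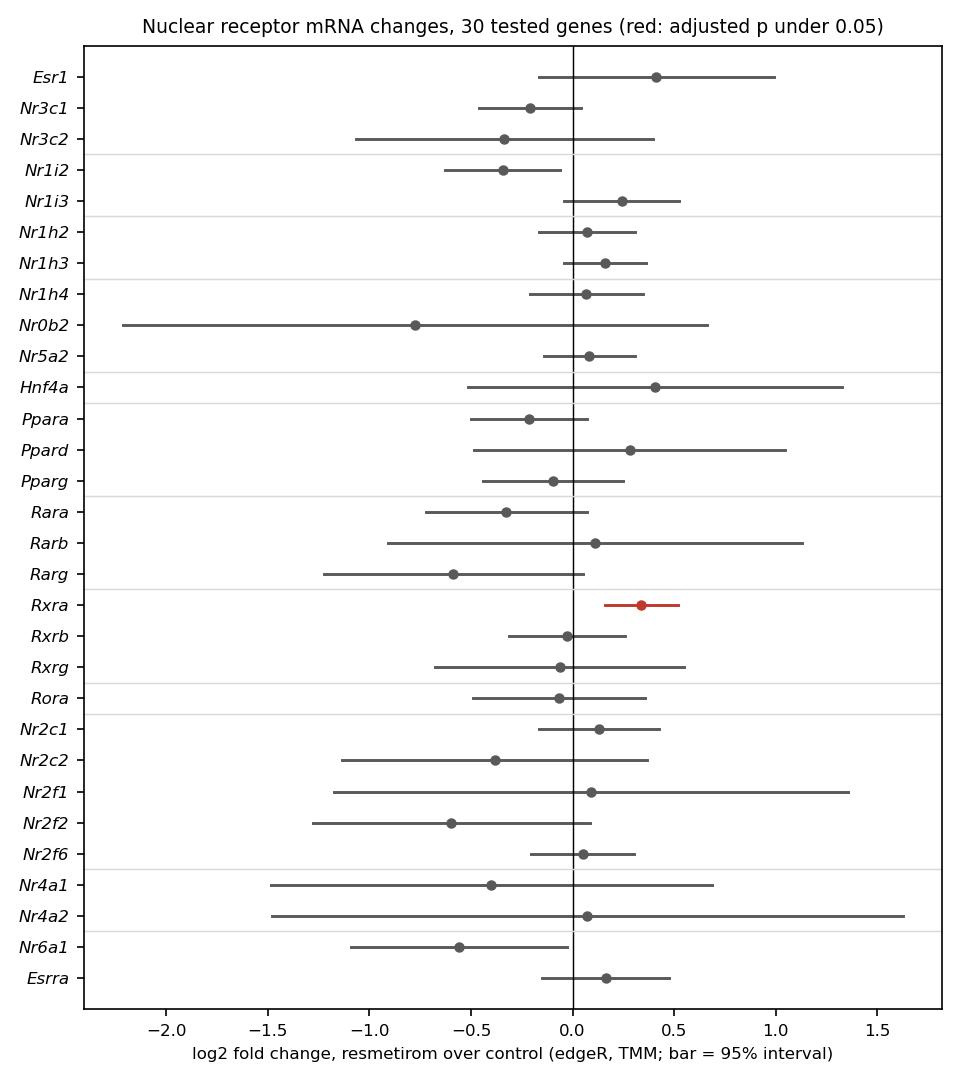
Log2 fold change of resmetirom over control for the 30 tested receptor genes (point) with its 95% interval from edgeR (bar), grouped by role. Rxra, in red, is the gene that passed at an adjusted p under 0.05, and the intervals of Nr4a2, Nr0b2, Nr2f1, Nr4a1 and Rarb are the widest.

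Rxra, which encodes the RXR that partners most metabolic receptors in liver (ENSMUSG00000015846, chromosome 2, 27676440 to 27762957 on GRCm38), was at 334, 358, 365 and 332 CPM in resmetirom replicates 1 to 4 and at 281, 279, 248 and 290 CPM in control replicates 1 to 4. All 4 resmetirom libraries lay above all 4 control libraries. Its mean was 347 ± 16.9 CPM in resmetirom libraries and 275 ± 18.6 CPM in control libraries. The log2 fold change was 0.34 (SE 0.08, 95% interval 0.16 to 0.52, edgeR adjusted p = 0.0384), a ratio of 1.26. The change was 0.29 to 0.36 when any 1 library was left out, but none of these 8 fits called it (adjusted p = 0.0520 to 0.112), nor did the fit without the 3 libraries set apart by clock genes (0.34, adjusted p = 0.175). With library sizes alone it was 0.03 (adjusted p = 0.873), and limma on log2(TPM + 1) gave -0.14 (adjusted p = 0.374). The rise is one relative to the TMM scaling. The other RXR genes were not called, with Rxrb at -0.03 (95% interval -0.31 to 0.26) and Rxrg at -0.06 (-0.68 to 0.55).

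The oxysterol receptors sense cholesterol derivatives and switch on sterol export and lipogenic genes. Nr1h3 was at 87.1, 93.3, 93.6 and 90.1 CPM in resmetirom replicates 1 to 4 and at 88.5, 87.5, 71.0 and 79.0 CPM in control replicates 1 to 4. The groups overlapped, since control replicates 1 and 2 exceeded resmetirom replicate 1. The log2 fold change was 0.16 (95% interval -0.04 to 0.36, edgeR adjusted p = 0.419), which bounds the ratio between 0.972 and 1.28. Nr1h2 (LXR beta), the widely expressed form, was at 0.07 (-0.17 to 0.31). Of 12 tested LXR target genes 7 fell and 0 rose, and the list median was -0.94 (log2). The sterol transporter genes Abcg5 and Abcg8 were at -1.64 and -1.50, the desaturase gene Scd1 at -1.88 and the lipoprotein lipase gene Lpl at -1.81 (adjusted p = 3.39e-07, 0.000862, 0.000793 and 0.00474 by edgeR, in that order). The list had 6 or 7 genes lower when any 1 library was left out and 5 without the 3 libraries set apart by clock genes, where Lpl was no longer called (-1.54, adjusted p = 0.152).

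The bile acid axis comprises the receptor gene Nr1h4, its target Nr0b2 (SHP), which encodes a repressor that lacks a DNA-binding domain, and Nr5a2 (LRH-1), an activator of bile acid synthesis that SHP restrains. Nr1h4 was at 114, 129, 107 and 99.9 CPM in resmetirom replicates 1 to 4 and at 87.7, 111, 98.9 and 132 CPM in control replicates 1 to 4. The groups overlapped fully, with a change of 0.07 (-0.21 to 0.35). Nr5a2 was at 0.08 (-0.14 to 0.31). Nr0b2 (ENSMUSG00000037583, chromosome 4, 133553376 to 133556536) was at 6.14, 6.75, 16.0 and 18.4 CPM in resmetirom replicates 1 to 4 and at 42.3, 14.5, 15.5 and 8.504 CPM in control replicates 1 to 4. The 3 libraries set apart by clock genes were the highest of the 8, and control replicate 1 alone held the upper extreme. Its change was -0.78 (-2.21 to 0.66, edgeR adjusted p = 0.603), -0.12 without control replicate 1 and -0.99 without all 3 libraries (adjusted p = 0.0781). With the log2 ratio of Bmal1 to Dbp of each library as a covariate, a fit chosen after seeing the data, it was -1.54 and passed (adjusted p = 0.0183). That fit called 5.14% of all tested genes.

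Target genes of the same axis were counted as well. Of 7 tested FXR target genes 1 rose and 0 fell (median 0.19), which was Abcb4, the phospholipid exporter of bile, at 0.40 (SE 0.09, edgeR adjusted p = 0.0241). Without the 3 libraries set apart by clock genes it was 0.36 and not called (adjusted p = 0.154), and it was also not called without resmetirom replicate 3 or 4 or control replicate 2 or 4 (adjusted p = 0.0672, 0.0794, 0.0652 and 0.0912). Of 3 genes that FXR and SHP repress, 2 rose. Slc10a1, the bile acid uptake transporter, was at 576 ± 90.9 CPM in resmetirom libraries and 306 ± 66.7 CPM in control libraries, a change of 0.92 (SE 0.16). Cyp8b1, the sterol 12-alpha-hydroxylase of cholic acid synthesis, was at 345 ± 68.4 CPM in resmetirom libraries and 152 ± 47.6 CPM in control libraries, a change of 1.18 (SE 0.24, edgeR adjusted p = 0.0235). Cyp8b1 was not called without resmetirom replicate 1 or 4 or control replicate 4 (adjusted p = 0.0670, 0.0702 and 0.0737), or without the 3 libraries (1.35, adjusted p = 0.0521).

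Hnf4a (ENSMUSG00000017950, chromosome 2, 163506808 to 163572910) was at 327, 338, 903 and 658 CPM in resmetirom replicates 1 to 4 and at 619, 349, 341 and 372 CPM in control replicates 1 to 4. The 3 libraries set apart by clock genes were again the highest, and the remaining 5 lay between 327 and 372 CPM. The change over all libraries was 0.41 (95% interval -0.51 to 1.33, edgeR adjusted p = 0.684), and without those 3 it was -0.09 (adjusted p = 0.783). Of 14 tested HNF4A target genes 3 rose and 0 fell (median 0.07), which were the apolipoprotein gene Apoc3 at 0.63, the lipid transfer gene Mttp at 0.45 and Cyp8b1, which stands in both lists. Without the 3 libraries 1 was called. With library sizes alone 1 was higher and 3 lower, beside 151 higher and 1961 lower of all 12207 tested genes.

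Other receptor genes ranked the same 3 libraries at one end. Rora, which encodes an activator of Bmal1, was at 33.3, 41.2, 64.9 and 59.1 CPM in resmetirom replicates 1 to 4 and at 56.1, 45.0, 54.9 and 51.7 CPM in control replicates 1 to 4. Its change was -0.07 (-0.49 to 0.36) over all libraries and -0.44 (adjusted p = 0.135) without the 3. Ppard and Nr4a2 were also highest in the 3 libraries, and Nr2f2, Nr2c2, Nr3c2, Nr2f1 and Rxrg were lowest in them. Nr2c2, an orphan receptor gene (TR4), was at 11.5, 9.22, 8.19 and 6.44 CPM in resmetirom replicates 1 to 4 and at 4.56, 13.2, 13.3 and 15.2 CPM in control replicates 1 to 4. Nr3c2, the mineralocorticoid receptor gene, was at 8.40, 12.8, 6.66 and 8.00 CPM in resmetirom replicates 1 to 4 and at 4.89, 12.0, 13.8 and 14.6 CPM in control replicates 1 to 4. Both had control replicate 1 as the lowest library of all. The change was -0.38 (-1.13 to 0.37) for Nr2c2 and -0.34 (-1.07 to 0.39) for Nr3c2. With the Bmal1 to Dbp ratio as a covariate, a fit chosen after seeing the data, it was 0.12 and 0.17, in that order. How many of all tested genes rank these 3 libraries at one end was not counted. The ranking is therefore not shown to be particular to receptor genes. What sets these 3 libraries apart was not tested.

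**Figure D3:**
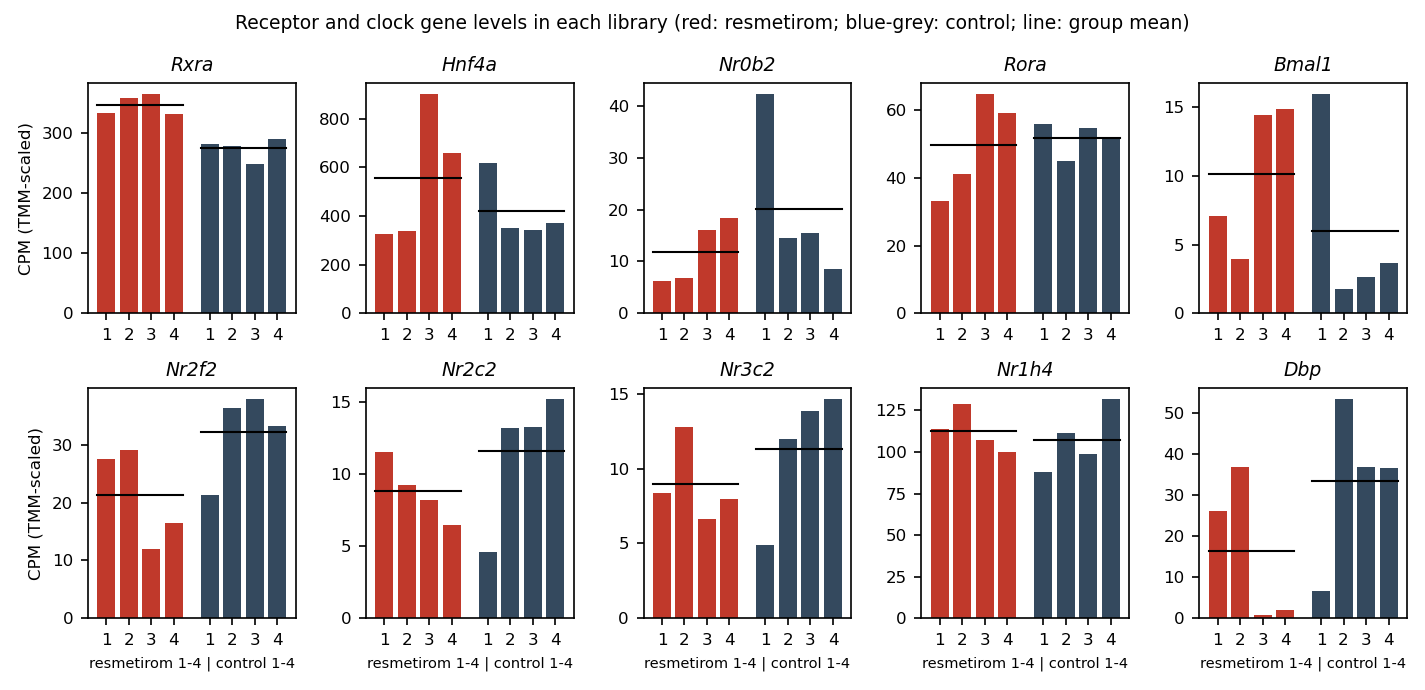
TMM-scaled CPM of 8 receptor genes and the clock genes Bmal1 and Dbp, with 1 bar per library, resmetirom replicates 1 to 4 (red) left of control replicates 1 to 4 (blue-grey), each panel on its own axis from 0 with the group mean as a line. Hnf4a, Nr0b2 and Rora are highest, and Nr2f2, Nr2c2 and Nr3c2 lowest, in the libraries where Bmal1 is high and Dbp low, while Rxra separates the groups.

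The xenobiotic receptors induce enzymes and transporters of drug clearance. Nr1i2 (PXR) was at 40.8, 50.9, 53.8 and 60.6 CPM in resmetirom replicates 1 to 4 and at 62.2, 77.7, 58.5 and 63.1 CPM in control replicates 1 to 4. The groups overlapped by resmetirom replicate 4 exceeding control replicate 3. The change was -0.34 (95% interval -0.63 to -0.06, edgeR adjusted p = 0.184), and it passed with library sizes alone (-0.66, adjusted p = 0.00396). Nr1i3 was at 80.6, 102, 93.2 and 107 CPM in resmetirom replicates 1 to 4 and at 75.2, 102, 70.8 and 74.9 CPM in control replicates 1 to 4. Its change was 0.24 (-0.04 to 0.52), with control replicate 2 inside the resmetirom range and the other 3 control libraries below it. Of 22 tested PXR and CAR target genes 4 rose and 8 fell, with a median of -0.25, and 7 or 8 were lower when any 1 library was left out and 7 without the 3 libraries set apart by clock genes. Abcc3, an exporter of conjugates, fell to 31.0 ± 9.84 CPM in resmetirom libraries, against 215 ± 15.7 CPM in control libraries. The carboxylesterase gene Ces2a was at -1.16 (SE 0.10, edgeR adjusted p = 6.19e-05) and the glutathione transferase gene Gsta2 at -1.47 (SE 0.16). Cyp2a4, which mouse livers express more in females, was at 955 ± 74.7 CPM in resmetirom libraries and 95.6 ± 32.9 CPM in control libraries, a rise of 3.32 (SE 0.24). Reads of Cyp2a4 and of the near-identical Cyp2a5 may be split uncertainly. The 4 rises became 2 without control replicate 3 or control replicate 4.

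The fatty acid receptors split by tissue, with Ppara driving oxidation in hepatocytes and Pparg driving lipid storage in adipocytes and in fatty liver. Ppara was at 44.4, 46.2, 63.3 and 56.0 CPM in resmetirom replicates 1 to 4 and at 52.8, 66.2, 56.3 and 68.5 CPM in control replicates 1 to 4. The groups overlapped, with a change of -0.22 (95% interval -0.50 to 0.07, edgeR adjusted p = 0.451) and -0.49 (adjusted p = 0.0621) without the 3 libraries set apart by clock genes. With library sizes alone Ppara passed (-0.54, adjusted p = 0.0151). Pparg was at 16.97, 13.2, 18.7 and 13.1 CPM in resmetirom replicates 1 to 4 and at 19.1, 14.0, 14.8 and 18.4 CPM in control replicates 1 to 4. Its change was -0.10 (-0.44 to 0.25). Ppard, the ubiquitous form, was at 0.28 (-0.48 to 1.05). Of 24 tested PPARA target genes 3 rose and 1 fell (median 0.11). Those were Cpt1a at 0.58, Fabp1 at 0.49 and Cyp4a14 at 0.46 among the rises, and Cpt1b, the muscle form of the carnitine transferase, at -1.003. Without the 3 libraries 0 were higher and 3 lower, and with library sizes alone 0 and 8. The first of these fits called 2.95% of all genes and the second 17.3%, most of them lower. Leaving out resmetirom replicate 4 or control replicate 4 left 1 rise and 0 falls, the falls were also 0 without resmetirom replicate 2 or control replicate 3, and they were 3 without resmetirom replicate 3. Of 8 tested PPARG target genes 4 fell and 0 rose (median -0.71). They were the droplet coat gene Plin4 at -1.66, the fatty acid carrier gene Fabp4 at -0.996, Lpl at -1.81 and the glycerol channel gene Aqp7 at -1.99. Lpl also stands in the LXR target list. Aqp7 was near the floor, at 0.338 ± 0.199 CPM in resmetirom libraries and 1.39 ± 0.471 CPM in control libraries. Without the 3 libraries 2 of the PPARG target genes were lower. The adipocyte markers Adipoq, Plin1, Lep, Retn and Cfd summed to 0 CPM in every resmetirom library. In the control libraries they summed to 0.273 to 1.68 CPM, where Cfd averaged 0.767 CPM, Plin1 0.037 CPM and Adipoq, Lep and Retn 0 CPM. Whether adipose tissue contributed to the PPARG target changes was not tested.

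**Figure D4:**
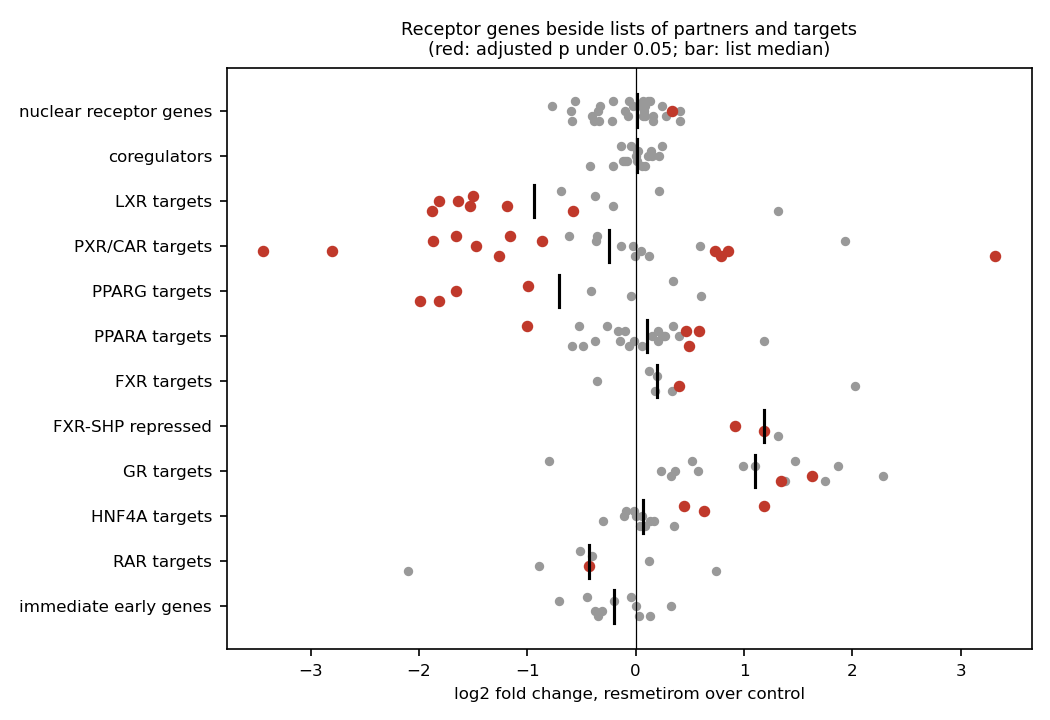
Log2 fold changes, resmetirom over control, of the tested nuclear receptor genes, their coregulators and 10 lists of target or companion genes, with 1 point per gene, red where the edgeR adjusted p is under 0.05, and a bar at the list median. Receptor genes lie between -0.78 and 0.41, while PXR and CAR targets reach -3.44 and 3.32 and the LXR targets that passed all lie below 0.

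Among steroid receptors Nr3c1, the glucocorticoid receptor gene, was at 59.6, 65.3, 75.0 and 60.2 CPM in resmetirom replicates 1 to 4 and at 66.1, 67.2, 81.4 and 86.2 CPM in control replicates 1 to 4. Resmetirom replicates 1, 2 and 4 were below every control library and replicate 3 was inside their range, and the change was -0.21 (95% interval -0.46 to 0.04, edgeR adjusted p = 0.389), and it passed with library sizes alone (-0.53, adjusted p = 0.0176). Of 15 tested glucocorticoid receptor target genes 2 rose and 0 fell, with a median of 1.10. The kinase gene Sgk1 was at 1.34 (SE 0.19) and the tyrosine aminotransferase gene Tat at 1.63 (SE 0.27). DESeq2 called 6 of the list higher and limma-voom 4, beside 532 of 12198 and 330 of 12207 genes in the same order. Esr1, the estrogen receptor alpha gene, was at 14.4, 17.5, 12.5 and 14.7 CPM in resmetirom replicates 1 to 4 and at 9.31, 18.7, 8.27 and 8.11 CPM in control replicates 1 to 4. Control replicate 2 was the highest library of all and the other 3 controls were the lowest. The change was 0.41 (-0.17 to 0.99, edgeR adjusted p = 0.483), and 0.78 (adjusted p = 0.0188) without control replicate 2.

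The retinoic acid receptors bind DNA with RXR and act on hepatocytes and on the vitamin A-storing stellate cells. Rara was at 8.85, 9.55, 10.99 and 6.64 CPM in resmetirom replicates 1 to 4 and at 12.9, 12.3, 8.72 and 11.2 CPM in control replicates 1 to 4, with overlapping groups and a change of -0.33 (-0.72 to 0.07). Rarg was at -0.59 (-1.22 to 0.05) and Rarb at 0.11 (-0.91 to 1.13). With library sizes alone Rara passed (-0.64, edgeR adjusted p = 0.0342). Of 7 tested retinoic acid receptor targets 1 fell (median -0.44), the transglutaminase gene Tgm2 at -0.44 (adjusted p = 0.0494). It was not called without resmetirom replicate 2 or 4 or any 1 control library (adjusted p = 0.0602 to 0.137), nor without the 3 libraries set apart by clock genes (adjusted p = 0.145).

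Nr2f2 (COUP-TFII), an orphan receptor gene of venous endothelium and mesenchymal cells, was at 27.5, 29.0, 11.9 and 16.5 CPM in resmetirom replicates 1 to 4 and at 21.4, 36.3, 37.8 and 33.2 CPM in control replicates 1 to 4. Its change was -0.60 (-1.28 to 0.08, edgeR adjusted p = 0.357), and -0.34 (adjusted p = 0.190) without the 3 libraries set apart by clock genes, which held its lowest values. Its relative Nr2f1 had 0.203 to 0.733 CPM in resmetirom libraries and 0.140 to 0.727 CPM in control libraries. In bulk tissue fewer cells of a type and less RNA per cell cannot be told apart. The 10 endothelial markers summed to 267 to 388 CPM in resmetirom libraries and 302 to 434 CPM in control libraries with 0 called (Stab2 had the smallest p, at -0.46, adjusted p = 0.117). All 10 had a log2 fold change below 0, with a median of -0.28, the same sign as that of Nr2f2. The 10 stellate markers summed to 465 to 750 CPM in resmetirom libraries and 462 to 682 CPM in control libraries, with 8 below 0, a median of -0.15 and 1 called lower, Col3a1 at -1.06. Col3a1 was called without resmetirom replicate 1 or control replicate 2 (adjusted p = 0.0108 and 0.0357) and not without any 1 of the other 6 libraries (adjusted p = 0.0641 to 0.143). The 10 Kupffer cell markers summed to 427 to 1128 CPM in resmetirom libraries and 680 to 991 CPM in control libraries, and the 8 monocyte markers to 103 to 257 and 211 to 335 CPM in the same order. The 7 cholangiocyte markers summed to 40.5 to 71.8 CPM in resmetirom libraries and 28.4 to 53.1 CPM in control libraries, and the 10 lymphocyte markers to 3.06 to 13.5 and 3.96 to 7.91 CPM in the same order. edgeR called 0 markers of these 4 cell types, with the smallest p for Marco (1.79, adjusted p = 0.303), Gpnmb (-1.86, adjusted p = 0.0857), Sox9 (-1.38, adjusted p = 0.188) and Nkg7 (2.16, adjusted p = 0.0897). Marco and Sox9 had the opposite sign to most of their lists, since 7 of 10 Kupffer cell markers were below 0 (median -0.11) and 4 of 5 tested cholangiocyte markers above 0 (median 0.67). Of the monocyte markers 6 of 8 were below 0 (median -0.45), and of the tested lymphocyte markers 5 of 6 were above 0 (median 0.74). At an unadjusted p under 0.05 there were 2 endothelial, 0 Kupffer cell, 2 monocyte, 1 cholangiocyte and 2 lymphocyte markers, against 17.8% of all tested genes. Among these lists DESeq2 called 1 monocyte and 1 lymphocyte marker, where it called 7.73% of all genes it tested. The stellate list had 2 markers at an unadjusted p under 0.05. The part of these cells in the receptor levels was not tested.

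Of the remaining orphan receptors, Nr6a1, best known from germ cells and embryos, was at 3.49, 3.44, 3.66 and 4.61 CPM in resmetirom replicates 1 to 4 and at 3.49, 6.53, 5.18 and 7.22 CPM in control replicates 1 to 4. Control replicate 1 lay within the resmetirom range and the other 3 controls above it, with a change of -0.56 (-1.09 to -0.03, edgeR adjusted p = 0.252), and it passed with library sizes alone (-0.88, adjusted p = 0.0393). Nr2f6 was at 0.05 (-0.20 to 0.30), Nr2c1 at 0.13 (-0.17 to 0.42) and Esrra, which works with PGC-1 coactivators on mitochondrial genes, at 0.16 (-0.15 to 0.47). The immediate early receptors were low, with Nr4a1 at 0.407 to 1.43 CPM in resmetirom libraries and 0.742 to 2.002 CPM in control libraries, and Nr4a2 at 0.130 to 1.07 and 0.0484 to 1.07 CPM in the same order. Of 11 tested immediate early genes outside the receptor family 0 were called by edgeR or DESeq2 and 1 had an unadjusted p under 0.05 (median -0.20), and Junb had the smallest p (-0.71, adjusted p = 0.265).

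Coregulators gave a like picture, with 0 of 18 called, a median of 0.01 and a range of -0.42 to 0.24; Hdac3, a deacetylase of the corepressor complex, had the smallest p (0.22, edgeR adjusted p = 0.364). At an unadjusted p under 0.05 there were also 0, DESeq2 called 0, and with library sizes alone 3 were lower. The fit with library sizes alone called 1961 of all 12207 tested genes lower. Of 9 tested nuclear receptor genes outside the 33, 1 rose. Esrrg, an orphan receptor gene of oxidative tissues, was at 8.26 ± 2.42 CPM in resmetirom libraries and 2.75 ± 1.11 CPM in control libraries, a change of 1.59 (SE 0.33, edgeR adjusted p = 0.0185). It was not called without resmetirom replicate 2 or 4 or control replicate 4 (adjusted p = 0.0534, 0.0638 and 0.0694).

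Exons of 10 of the 33 genes overlap those of another gene in GENCODE M21. The overlap covered 74.9% of the exonic bases of Nr1i3 (Tomm40l), 54.4% of Nr2f6 (Ocel1), 34.1% of Rarb (Top2b) and 30.7% of Nr2c2 (Mrps25), each with a gene on the opposite strand. How strand was handled in counting is not stated in the labels, so reads of these neighbours could not be told apart from those of the receptor.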

How the data were processed

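Poly(A)-selected RNA of mouse liver was sequenced in 8 libraries. Build mm10 and the tools HISAT2 2.1.0, RSEM, fastp 0.18.0, StringTie 1.3.1, edgeR, Bowtie2 2.2.8 and DESeq2 appear, with no role or order, per the submitters' processing notes. Per the file headers, the authors deposited whole-number counts per gene, TPM values and their group means, a log2 fold change, and a p-value with its adjusted form; the last 3 were not used here. TPM fixes each library's sum, so abundant transcripts that change shift all others. There were 0 per-sample columns without a sample.

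The main test on counts was that of edgeR 4.0.16 under R 4.3.3 (filterByExpr, TMM factors, robust quasi-likelihood test, Benjamini-Hochberg over 12207 genes, threshold 0.05). Fold changes are resmetirom minus control, with 95% intervals from the SE and the fit's degrees of freedom. CPM uses counts divided by TMM-scaled library sizes. The alternatives used DESeq2 1.42.0, limma 3.58.1 and other settings. The fit was also run on counts simulated from its own means and dispersions, with the outcome not given here. Such a run cannot show that the fit suits these libraries. Members and lists were chosen with earlier results of these data known. From each other list up to 4 called genes with the smallest p are named, or else the 1 with the smallest p; 15 of 16 glucocorticoid receptor targets were matched by symbol. Replicate pairs differed by a chi-square per degree of freedom of at least 13.9, beyond the counting noise of the same library sequenced again. Pairs with resmetirom replicate 1 had 96.9 to 207, the other resmetirom pairs 25.15 to 51.8 and the control pairs 13.9 to 64.2. These values cannot tell whether libraries shared an animal or an RNA sample. Summed list levels carry no test. A result on 1 gene outside the 33 is not reported here.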

Additional observations from a re-analysis of the deposited data

Results flagged for a closer look

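In 5 of 60 groups of 4 libraries, 1 library stood far from the other 3, by a gap to its neighbour over the whole range above Dixon's 95% critical value. Chance gives about 1 in 20. Control replicate 2 was high for Esr1 (18.7 CPM, gap 0.887 of the range), for Nr1i3 (102 CPM, 0.859) and for Rxrg (4.93 CPM, 0.921). Control replicate 1 was high for Hnf4a (619 CPM, 0.889) and for Rxrb (22.7 CPM, 0.857).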

How the results depend on the processing

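Of the receptor genes, 1 was called higher and 0 lower with DESeq2, upper-quartile factors, no low-count filter, a filter at 1 CPM, limma-voom and no robust estimation. With library sizes only there were 0 higher and 5 lower (Nr3c1, Nr1i2, Ppara, Rara and Nr6a1; median -0.30) beside 151 higher and 1961 lower of all genes (17.3% called), and on log2(TPM + 1) and log2(TPM + 0.1) there were 0 higher and 13 lower (medians -0.44 and -0.55), beside 127 higher and 4635 lower (39% called) and 128 higher and 4593 lower (38.7% called) of all genes. These scales shift most genes, with a median of -0.31, -0.41 and -0.50 over all genes. The 13 on both TPM scales were Nr3c1, Nr1i2, Nr1h2, Nr0b2, Ppara, Pparg, Rara, Rarg, Rxrb, Rora, Nr2f2, Nr2f6 and Nr6a1. Leaving out 1 library gave 0 to 1 higher, 0 to 0 lower and a median of -0.066 to 0.013. The single call there was Esr1, without control replicate 2, in a fit that called 3.66% of all genes. Without the 3 libraries set apart by clock genes there were 0 higher and 0 lower, beside 210 higher and 160 lower of all genes (2.95% called). With the Bmal1 to Dbp covariate there were 0 higher and 1 lower (Nr0b2), beside 332 higher and 295 lower of all genes (5.14% called). Both fits were chosen after seeing the data.

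With the replicate number as a block there were 0 higher and 0 lower (Rxra 0.34, adjusted p = 0.120), and 240 higher and 166 lower of all genes. Whether the numbers pair the libraries is not stated in the labels. Same-numbered libraries deviated from their group means with r = -0.34, 0.21, -0.21 and -0.09, and 1 of 4 resmetirom libraries correlated best with its own number. With so few libraries these values cannot exclude a shared batch or day.

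Signs changed for genes that were not called in the main fit, and for Rxra on TPM. Of these, Nr1h2 and Nr2f6 passed as lower on log2(TPM + 1) (limma adjusted p = 0.0295 and 0.0344). They also passed on log2(TPM + 0.1) (limma adjusted p = 0.0296 and 0.0349). The log2 fold changes with library sizes only were Nr1i3 -0.072, Nr1h2 -0.23, Nr1h3 -0.15, Nr1h4 -0.24, Nr5a2 -0.23, Ppard -0.034, Rarb -0.15, Nr2c1 -0.16, Nr2f1 -0.20, Nr2f6 -0.26, Nr4a2 -0.25 and Esrra -0.14. On log2(TPM + 1) they were Esr1 -0.020, Nr1i3 -0.25, Nr1h2 -0.52, Nr1h3 -0.34, Nr1h4 -0.42, Nr5a2 -0.38, Hnf4a -0.19, Ppard -0.11, Rarb -0.085, Rxra -0.14, Nr2c1 -0.31, Nr2f6 -0.44, Nr4a2 -0.096 and Esrra -0.36. On log2(TPM + 0.1) they were Esr1 -0.018, Nr1i3 -0.26, Nr1h2 -0.55, Nr1h3 -0.34, Nr1h4 -0.43, Nr5a2 -0.40, Hnf4a -0.19, Ppard -0.19, Rarb -0.11, Rxra -0.14, Nr2c1 -0.38, Nr2f6 -0.45, Nr4a2 -0.23 and Esrra -0.39. Leaving out 1 library gave ranges across 0 for Nr1h4 -0.018 to 0.18, Nr2f1 -0.22 to 0.35, Nr2f6 -0.034 to 0.13, Nr4a2 -0.33 to 0.55, Ppard -0.021 to 0.51, Rarb -0.27 to 0.53, Rora -0.22 to 0.084, Rxrb -0.12 to 0.069, Rxrg -0.26 to 0.14. Without the 3 libraries they were Hnf4a -0.090, Ppard -0.0089, Rxrb 0.15, Rxrg 0.18, Nr4a1 0.11 and Nr4a2 -0.34. With the covariate they were Nr3c2 0.17, Hnf4a -0.25, Ppard -0.24, Rxrg 0.24, Nr2c2 0.12 and Nr4a2 -0.89. The cause was not tested. The 4 libraries a group and, for the rarest genes, few counts limit what could be seen.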
